A study of Mus musculus with 868 samples.

Results

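Histone cluster genes were taken as every row of 24 tissue count tables whose symbol starts with Hist1h, Hist2h, Hist3h or Hist4h, the older mouse symbols that number the genomic clusters of histone genes. There were 68 of these genes among 24421 in the tables: 54 Hist1h genes, 10 Hist2h genes, 3 Hist3h genes and 1 Hist4h gene. By the histone in their names they were 6 H1, 18 H2A, 19 H2B, 12 H3 and 13 H4 genes, and 1 of the H2B genes, Hist3h2bb-ps, is annotated as a processed pseudogene. The genes were chosen by name and not by a measured value. Of the 68, 59 had a read in at least 1 library, and 9 were at 0 in every library: Hist1h2ao, Hist1h2ap, Hist1h2bq, Hist1h2br, Hist1h4m, Hist2h2aa1, Hist2h2aa2, Hist2h3c1 and Hist2h3c2.

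The series holds 868 libraries of QuantSeq 3′ mRNA sequencing from 24 frozen tissues of C57BL/6N mice, and by its title its aim was to predict clinical outcomes in people from the transcriptomes of many mouse organs. In each tissue 18 groups were sampled, 15 of them given a drug and 3 serving as controls, with 2 libraries per group except asenapine brain and sofosbuvir jejunum, which had 4. The drugs were cisplatin, APAP (acetaminophen; the titles give 2 hours), sofosbuvir, EMPA (the titles give oral dosing for 2 weeks), Dox (the titles give 2 mg per mL), aripiprazole, clozapine, lenalidomide, Repatha, teriparatide, alendronate, risedronate, asenapine, lurasidone and olanzapine. The control groups were 0.5percentCMC0.25percentTween80, FivePercentSucrose and WT(No treated). All groups share the strain C57BL/6N, and no group is labelled with a mutant allele. Age, sex, dose other than that of Dox, and whether a library holds 1 animal or a pool are not given in the sources used here, so every p-value measures the spread between these libraries, which may be technical.

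Treatments were compared only within 3 library sets, since libraries of different sets differed throughout the transcriptome; the sets rest on expression values seen earlier and not on the labels. APAP and sofosbuvir were set against FivePercentSucrose and WT(No treated) together, and FivePercentSucrose against WT(No treated). The 8 drugs cisplatin, aripiprazole, clozapine, Dox, EMPA, lenalidomide, Repatha and teriparatide were set against 0.5percentCMC0.25percentTween80, called their control libraries below. Alendronate, risedronate, asenapine, lurasidone and olanzapine had no control group in their set, so each was set against the other 4, and these comparisons share libraries with each other. Total counts per library were 451154 to 12811780, and the untreated libraries were the deepest at 2875950 to 12811780 against 451154 to 3685250 in the other 820. Histone cluster genes took 17 to 3087 counts of a library, with a median of 176.5. Of 88 markers of tissues and cell types, 85 had their highest untreated level in the labelled tissue, the exceptions being Tshr, Fabp2 and Myh11.

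Histones package DNA: H2A, H2B, H3 and H4 form the core of the nucleosome, and H1 binds the linker DNA between cores. Most histone cluster genes are transcribed in S phase, when new DNA has to be packaged, and their mRNAs end in a short hairpin, the histone stem-loop, in place of a poly(A) tail; the stem-loop is bound by the protein of Slbp, and cleavage just after it needs the U7 small nuclear RNA. Some of these genes also give polyadenylated transcripts, described mostly in cells that have stopped dividing, and some serve the male germ line, in which histones are later exchanged for protamines. The library kit starts from poly(A), so a count here is a read from a polyadenylated end, and the stem-loop form of the same gene is expected to be missed. All levels below are CPM of that kind, counts scaled to the size of the library, and a level of 0 does not mean that a gene was silent.

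The stem-loop is shown because an mRNA that ends at it is expected to be missed by these libraries. A search of the GENCODE M21 transcripts on the transcribed strand for the histone stem-loop with a stem of 6 paired bases found it in 46 of the 68 genes, and in 107 of all 141767 transcripts (0.0755%). Its presence did not part well counted genes from the rest. It was in 20 of the 27 genes that reached a mean of 5 CPM in an untreated tissue and in 26 of the other 41. There were 8 distinct 16-base elements, and 1 of them, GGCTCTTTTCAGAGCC, was in 26 genes. The sequences below run 5′ to 3′ on the sense strand with 7 bases on each side, and capitals mark the stem-loop. Hist1h1e, Hist1h1c and Hist1h1d encode linker histones, Hist1h2ab, Hist1h2ae and Hist2h2ac encode H2A, Hist1h2bk and Hist1h2bp H2B, Hist1h3a H3, and Hist1h4a, Hist1h4h and Hist1h4i H4.
Hist1h1e: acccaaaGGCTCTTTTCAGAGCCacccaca
Hist1h1c: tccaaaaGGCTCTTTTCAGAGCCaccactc
Hist1h1d: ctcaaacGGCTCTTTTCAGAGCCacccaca
Hist1h2ab: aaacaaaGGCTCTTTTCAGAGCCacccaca
Hist1h2ae: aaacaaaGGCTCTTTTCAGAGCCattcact
Hist2h2ac: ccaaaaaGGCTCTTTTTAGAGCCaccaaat
Hist1h2bk: caccaaaGGCTCTTTTAAGAGCCactaaac
Hist1h2bp: acacaaaGGCTCTTTTCAGAGCCacccaca
Hist1h3a: aaccaaaGGCTCTTTTCAGAGCCacacacg
Hist1h4a: aaccaaaGGCCCTTCTCAGGGCCgcccaca
Hist1h4h: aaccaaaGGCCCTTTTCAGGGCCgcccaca
Hist1h4i: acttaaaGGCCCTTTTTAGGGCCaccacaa
The second most common element, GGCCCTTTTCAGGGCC, was in 7 genes, and that of Hist1h4a was in no other gene. The annotation carries some of these genes well past the element. The transcript of Hist1h1e went on for 1153 bases after it, that of Hist1h1c for 840 and that of Hist1h4i for 330. The transcript of Hist1h4h went on for 46 bases, and 1 of the 2 transcripts of Hist1h2bp for 38. An AATAAA or ATTAAA hexamer, the usual signal for polyadenylation, stood in the last 50 bases of a transcript in 17 of the 68 genes, and 14 had both features. No transcript of Hist1h2bc, Hist2h2be, Hist1h1a, Hist1h1b or Hist1h2ba held the stem-loop letters. Some genes without a match are annotated only with short transcripts, 384 bases in Hist1h2ba and 312 in Hist1h4k. An element past the annotated end would be missed, so a missing match describes the annotation, and 46 genes may be too few.

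Many of these genes are near-identical copies of each other. In 50-base windows, the 9 genes at 0 shared 63.5% to 100% of their windows with another gene (median 93.1%), and the 59 counted genes a median of 43.8%. How the counting treated reads that match several genes is not given in the sources used here, so a level of 0 or a low level in a gene with many shared windows is uncertain. In the annotation 7 of the genes overlap another gene on the same strand, among them Hist1h1e with Hist1h2be and Hist3h2a with Trim17, and 21 overlap a gene on the opposite strand, among them Hist1h2ab, Hist1h2ae and Hist2h2ac. Whether the counting used strand is not given in the sources used here, so reads of such partners cannot be told apart.

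The promoters of these genes shared letters that the gene names did not select. RefSeq promoters of assembly GRCm38.p6, 250 bases before to 50 after the start, were at hand for 61 of the 68 genes and for 27025 genes in all. TATAAA on either strand stood in 57.4% of the histone cluster promoters and in 14.2% of all promoters. CCAAT on either strand stood in 85.2% and in 37.9%, but in only 3 of 12 H4 promoters, while all promoters of the H1, H2A, H2B and H3 genes held it. TTTGCAT, the core of the octamer, stood in 22.95% and in 4.59%, in 6 of 16 H2B and 7 of 17 H2A promoters and in no H1 or H3 promoter. A match of letters is no proof of a bound site.

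In untreated mice, bone marrow had the highest summed level of the 68 genes, 529 and 637 CPM in its 2 libraries, and 57 of the genes had a count there. Next came thymus with 254 and 216 CPM, skull with 169 and 297 CPM and colon with 205 and 201 CPM; the skull libraries lay on both sides of those of thymus and colon. Kidney, ileum, testis and jejunum had means of 171, 170.0, 168 and 166 CPM. At the low end brain had 26.8 and 29.6 CPM and pancreas 14.4 and 17.9 CPM, where 9 of the genes had a count. Untreated skull held 28552 and 34462 CPM of 6 genes of neutrophils and their precursors, against 87177 and 84537 CPM in bone marrow, so markers of marrow cells were high in skull too.

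What made up the sum differed between tissues. In bone marrow H1 genes gave 50.9% of the histone cluster counts, H2B genes 20.6%, H4 genes 15.8%, H2A genes 9.71% and H3 genes 2.98%. In kidney Hist1h2bc and Hist2h2be together gave 90.02% of the sum, in the adrenal gland 88.6% and in liver 88.4%, against 9.69% in bone marrow. In testis H2B genes gave 61.4% and H4 genes 23.3%. These are shares of counted ends, and genes differ in how often they end in poly(A).

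**Figure D1:**
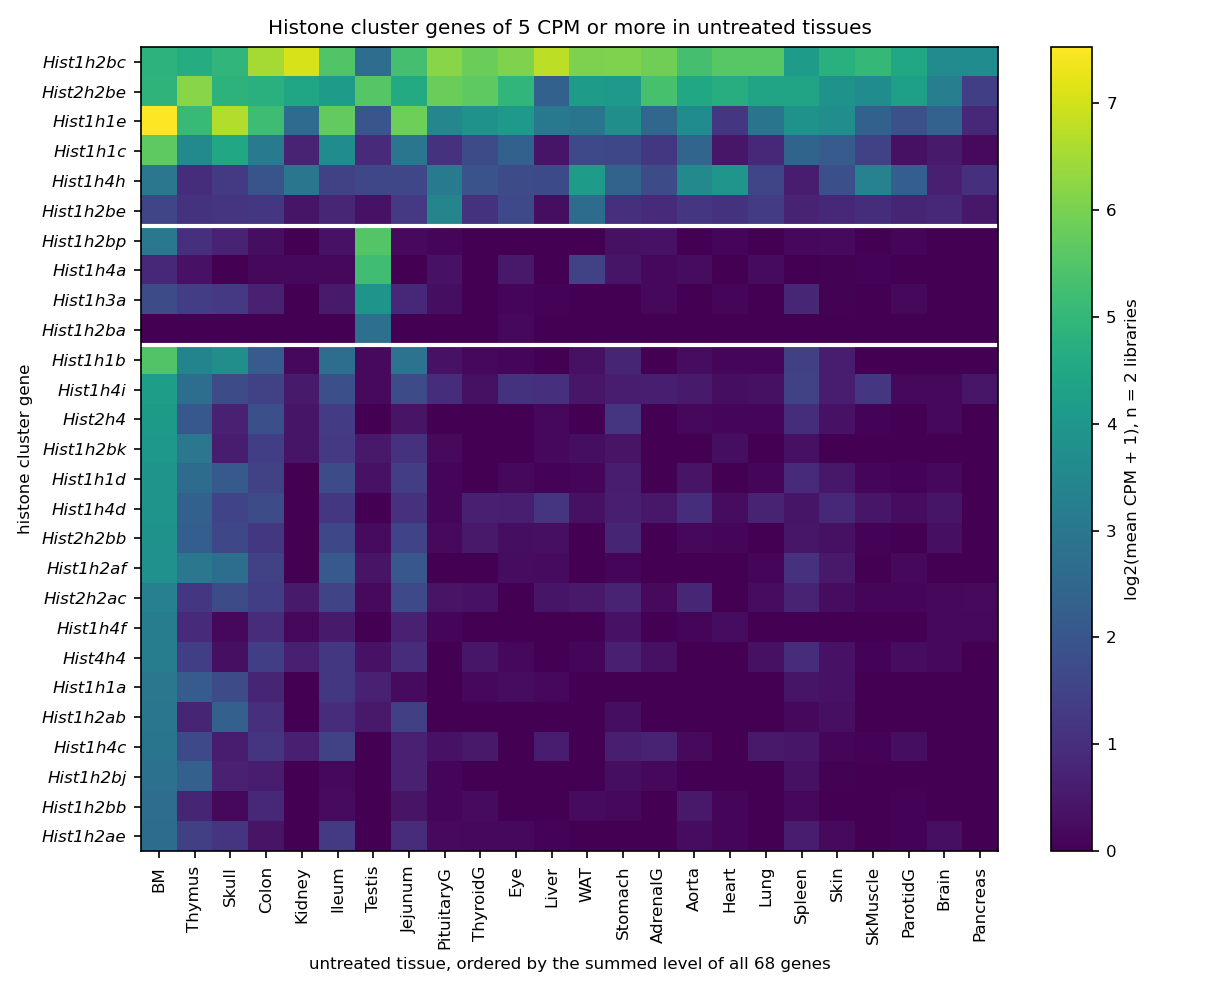
Mean level of 27 histone cluster genes that reach 5 CPM in a tissue, as log2(mean CPM + 1) of 2 untreated libraries, with tissues on the horizontal axis ordered by the summed level of all 68 genes and genes on the vertical axis. White lines part 6 genes counted in every or nearly every tissue at the top, 4 genes highest in testis and 17 genes highest in bone marrow; Hist1h2bc and Hist2h2be are the rows with colour across the whole width.

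Of the 6 H1 genes 5 were highest in bone marrow, the exception being Hist1h1t. Hist1h1e had 179 and 188 CPM in bone marrow (183 ± 6.19, SD, n = 2), followed by skull with 54.6 and 144 CPM, jejunum with 44.0 and 70.6 CPM and ileum with 48.6 and 55.6 CPM. Marrow lay above all other tissues, the skull libraries lay far apart from each other, and the pair of gut tissues overlapped; the lowest level was 0 and 1.58 CPM in pancreas. Against the mean of the other 23 tissues Hist1h1e was higher in bone marrow by 4.25 ± 0.17 on the log2 scale (SE; adjusted p = 6.86e-22, edgeR's quasi-likelihood test), and lower in testis by a log2 change of -1.89 ± 0.50 (adjusted p = 0.00103). Hist1h1c had 46.5 and 51.9 CPM in bone marrow against 10.8 and 32.6 CPM in skull, and Hist1h1b had 37.7 and 49.0 CPM in bone marrow against 4.92 and 19.2 CPM in skull and 9.76 and 9.23 CPM in thymus. Hist1h1b was at 0 in 6 tissues. Hist1h1d (9.47 and 18.3 CPM) and Hist1h1a (7.46 and 6.55 CPM) also had their highest level in marrow.

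Many core histone genes were also highest in bone marrow. Among H4 genes Hist1h4i had 15.9 and 19.0 CPM in bone marrow and 5.32 and 5.86 CPM in thymus, and Hist2h4 had 13.5 and 19.0 CPM in bone marrow. Among H2B genes Hist1h2bk had 13.3 and 16.9 CPM in bone marrow and 7.39 and 6.31 CPM in thymus, with no overlap of the tissues. Among H2A genes Hist1h2af had 12.9 and 12.9 CPM in bone marrow and 6.51 and 7.66 CPM in thymus. The other genes of this group that reached 5 CPM were Hist1h4d, Hist2h2bb, Hist2h2ac, Hist1h4f, Hist4h4, Hist1h2ab, Hist1h4c, Hist1h2bj, Hist1h2bb and Hist1h2ae, at means of 5.29 to 13.8 CPM in bone marrow.

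A pair of H2B genes was counted in every untreated tissue and did not follow the marrow order. Hist1h2bc had 136 and 129 CPM in kidney (133 ± 4.65, SD, n = 2), 103 and 116 CPM in liver and 89.8 and 91.7 CPM in colon, in that order and without overlap. Its lowest level was in testis, at 6.69 and 4.35 CPM. Relative to the other 23 tissues it was higher in liver by 2.07 ± 0.12 (log2, SE; adjusted p = 2.75e-17), in kidney by 1.77 ± 0.13 (adjusted p = 9.13e-15) and in colon by 0.98 ± 0.14 (adjusted p = 1.83e-07), and it was lower in testis (log2 change -2.83 ± 0.25, adjusted p = 2.01e-12), spleen (-1.56 ± 0.19, adjusted p = 1.43e-08) and thymus (-1.04 ± 0.18). Bone marrow, first for the H1 genes, was below the other tissues for Hist1h2bc, with a log2 change of -0.49 ± 0.17 (adjusted p = 0.0149). Hist2h2be had its highest level in thymus, 81.6 and 63.3 CPM, followed by the pituitary gland with 53.9 and 59.2 CPM, the thyroid gland with 49.5 and 49.8 CPM and testis with 42.6 and 48.8 CPM. Thymus stood above the others, and the lowest tissue was pancreas with 1.69 and 1.58 CPM. Its log2 difference from the other tissues was 1.54 ± 0.12 in thymus (adjusted p = 1.33e-13), 1.13 ± 0.12 in the pituitary gland (adjusted p = 8.26e-10) and -1.83 ± 0.20 in liver (adjusted p = 4.41e-10). Liver and testis thus stood in opposite places for these H2B genes.

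Hist1h4h, an H4 gene, was highest in fat and muscle. It had 16.4 and 17.3 CPM in white fat, 15.4 and 13.3 CPM in heart, 11.7 and 9.39 CPM in aorta and 10.5 and 7.82 CPM in skeletal muscle, against 0.694 and 0.273 CPM in spleen. White fat and heart did not overlap, while aorta and skeletal muscle did. The log2 difference from the other tissues was 2.57 ± 0.23 in heart (adjusted p = 3.75e-12), 2.53 ± 0.22 in skeletal muscle (adjusted p = 1.16e-12), 2.42 ± 0.23 in white fat (adjusted p = 5.64e-11) and -2.96 ± 0.57 in spleen (adjusted p = 3.48e-05). Hist1h2be, an H2B gene, had 8.27 and 11.2 CPM in the pituitary gland and 4.15 and 6.48 CPM in white fat, and was higher in the pituitary gland by 2.89 ± 0.25 (log2, adjusted p = 3.67e-12).

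**Figure D2:**
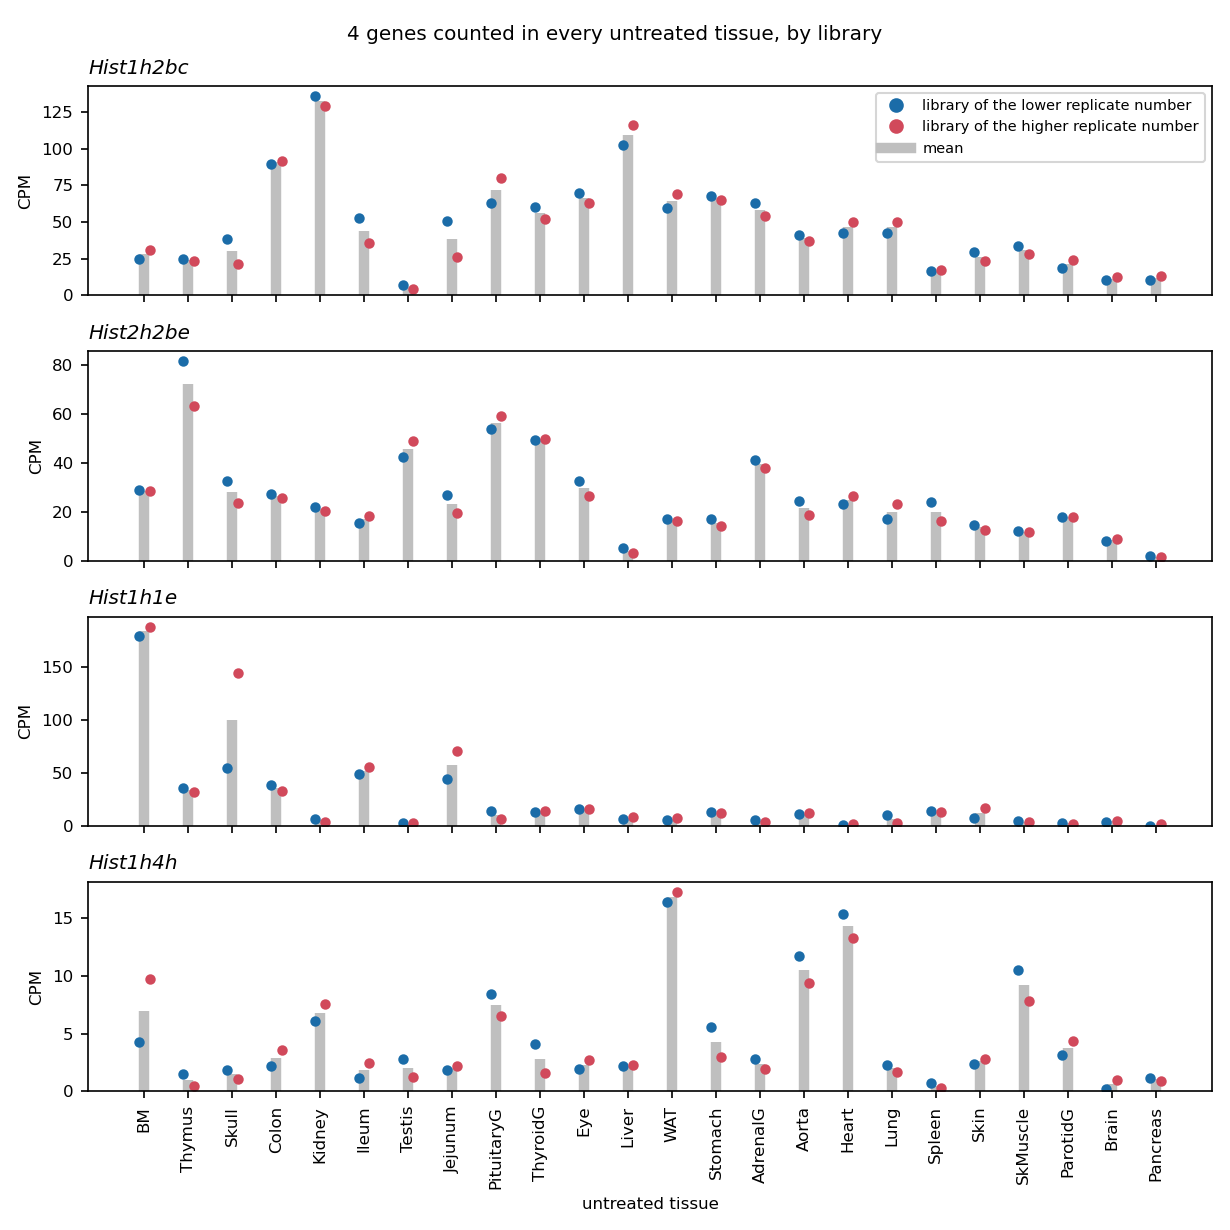
Level in CPM of Hist1h2bc, Hist2h2be, Hist1h1e and Hist1h4h in each untreated tissue, with 1 point per library and a bar for the mean of 2. Hist1h2bc peaks in kidney and liver, Hist2h2be in thymus and the pituitary gland, Hist1h1e in bone marrow and Hist1h4h in white fat and heart.

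A group of 4 genes had its highest level in testis. Hist1h2bp, an H2B gene, had 37.6 and 52.5 CPM in testis, against 5.04 and 9.26 CPM in bone marrow, the next tissue, and 0 in 10 tissues (adjusted p = 1.42e-19). Hist1h4a had 35.7 and 36.7 CPM in testis, against 1.66 and 1.85 CPM in white fat (adjusted p = 2.93e-20), and Hist1h3a had 13.9 and 13.7 CPM in testis, against 2.22 and 2.48 CPM in bone marrow (adjusted p = 2.19e-16). Hist1h2ba, the testis-specific H2B gene, had 7.80 and 3.73 CPM in testis, 0.236 and 0 CPM in eye and no count in 22 tissues (adjusted p = 1.70e-08). Hist1h2ba had a mean of at least 1 CPM in testis only, and Hist1h4a in testis and white fat only. A gene that passes the filter on low counts through testis has to differ there, so these p-values are no support for a higher level in testis. Hist1h1t, the H1 gene of male germ cells, reached a mean of 2.34 CPM in testis, below the naming level of 5 CPM. Testis also held the spermatid genes H1fnt and Hils1, replacement linker histones outside the clusters, at means of 540.2 and 1214 CPM.

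Counted over genes, 39 of the 68 passed the filter on low counts in the fit of untreated libraries, among 18298 genes, and 29 did not. Bone marrow had 37 of the 39 higher than the mean of the other tissues, when 28.0% of all genes were higher, and 1 lower, when 23.4% were. A gene passes the filter if it reaches the minimum in the libraries of 1 tissue, and Hist1h2bb and Hist1h4f, for example, had a mean of at least 1 CPM in bone marrow and in no other tissue. Such genes had to differ, so the counts here describe the genes that passed and are no support for a higher level in marrow. Thymus had 33 higher and 2 lower (all genes 30.8% higher and 20.4% lower), colon 28 higher and none lower (25.5% and 13.8%), ileum 20 higher and 2 lower (25.8% and 12.6%), skull 19 higher and 2 lower (26.1% and 16.9%) and jejunum 18 higher and 1 lower (27.3% and 14.0%). Spleen had 9 higher and 2 lower (28.0% and 18.3%) and stomach 7 higher and 1 lower (26.9% and 11.3%). Testis had 9 higher and 3 lower, when 40.2% and 28.6% of all genes were, which is a smaller share than in the background.

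The remaining tissues had few. The pituitary gland had 6 higher (29.2% of all genes), white fat 5 higher and 1 lower (21.7% and 14.0%), liver 3 and 3 (25.5% and 22.2%), heart 3 and 2 (23.9% and 19.6%), and kidney 2 and 3 (27.1% and 18.1%). Lung had none higher and 4 lower (28.6% and 14.4%), and skin none higher and 2 lower (27.5% and 15.2%). Eye had 3 higher and none lower (34.4% and 21.5%), skeletal muscle 3 and none (27.4% and 21.9%), the parotid gland 2 and 2 (24.7% and 12.5%), brain 1 and 3 (28.8% and 23%), pancreas 1 and 1 (16.3% and 13.3%), the adrenal gland 1 and 1 (21.3% and 14.6%), aorta 1 and none (23.2% and 15.3%) and the thyroid gland 1 and none (23.1% and 12.8%). In lung the 4 were Hist1h1c, Hist1h1e, Hist1h4h and Hist2h2be. In kidney the genes that were lower were Hist1h1c, Hist1h1e and Hist1h2be. The sums of 20 genes of S phase and division were 4822 CPM in thymus, 4637 CPM in bone marrow, 2877 CPM in skull, 1821 CPM in jejunum, 1594 CPM in ileum, 985 CPM in testis, 938 CPM in colon and 152 CPM in kidney. That order differed from the order by histone counts. The mean of thymus stood above that of bone marrow, but their libraries overlapped (4750 and 4894 CPM against 4442 and 4832 CPM). Colon, which was above ileum and jejunum in the histone sum, was below them. Kidney was below them too, while its histone sums, 177 and 165 CPM, overlapped those of ileum (157 and 183 CPM) and jejunum (156 and 177 CPM). Without Hist1h2bc, Hist2h2be, Hist1h4h and Hist1h1e the mean histone sum was 4.99 CPM in kidney, 54.96 CPM in ileum, 47.4 CPM in colon and 45.4 CPM in jejunum. With DESeq2 fewer genes passed in thymus (20), colon (13), ileum (13), skull (12), jejunum (8), spleen (2) and testis (5), and the share of all genes with DESeq2 is not given here.

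Over the 24 tissue means of log2(CPM + 1), given here as a description, the genes of the marrow group resembled each other. Pearson's r was 0.984 between Hist1h1b and Hist1h2af, 0.981 between Hist1h1b and Hist1h1d, 0.967 between Hist1h2bb and Hist1h4f and 0.943 between Hist1h1e and Hist1h1c. The testis genes paired as Hist1h2ba with Hist1h4a (0.951) and Hist1h2bp with Hist1h3a (0.941). Hist1h2bc had no close partner, the best being Hist1h4h at 0.434, and the best of Hist2h2be was Hist1h3a at 0.411. With the sum of the division genes r was 0.878 for Hist1h2af and 0.872 for Hist1h1b, and -0.094 for Hist1h2bc and -0.257 for Hist1h4h. These points share libraries and depth, and tissues are not replicates.

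Under treatment 33 of the 68 genes passed the filter in at least 1 tissue, from 1 gene in pancreas to 29 in bone marrow, and 35 passed in none. Hist1h2bc passed in all 24 tissues, Hist2h2be and Hist1h1e in 22, Hist1h1c in 14 and Hist1h4h in 11. Each treatment thus had 155 tests of these genes over the 24 tissues. Of these, 29 were in bone marrow, 19 in thymus and 12 in skull, while the tests of all genes were spread more evenly over the tissues. Shares pooled over 24 tissues thus compare unlike mixes of tissues, and the shares within a tissue are given beside its calls. Over 384 comparisons 140 tests had an adjusted p below 0.05. Hist1h2bc had 29 of these, 13 higher and 16 lower, Hist1h1e 28, 17 higher and 11 lower, Hist1h1b 13 and Hist1h1c 12.

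**Figure D3:**
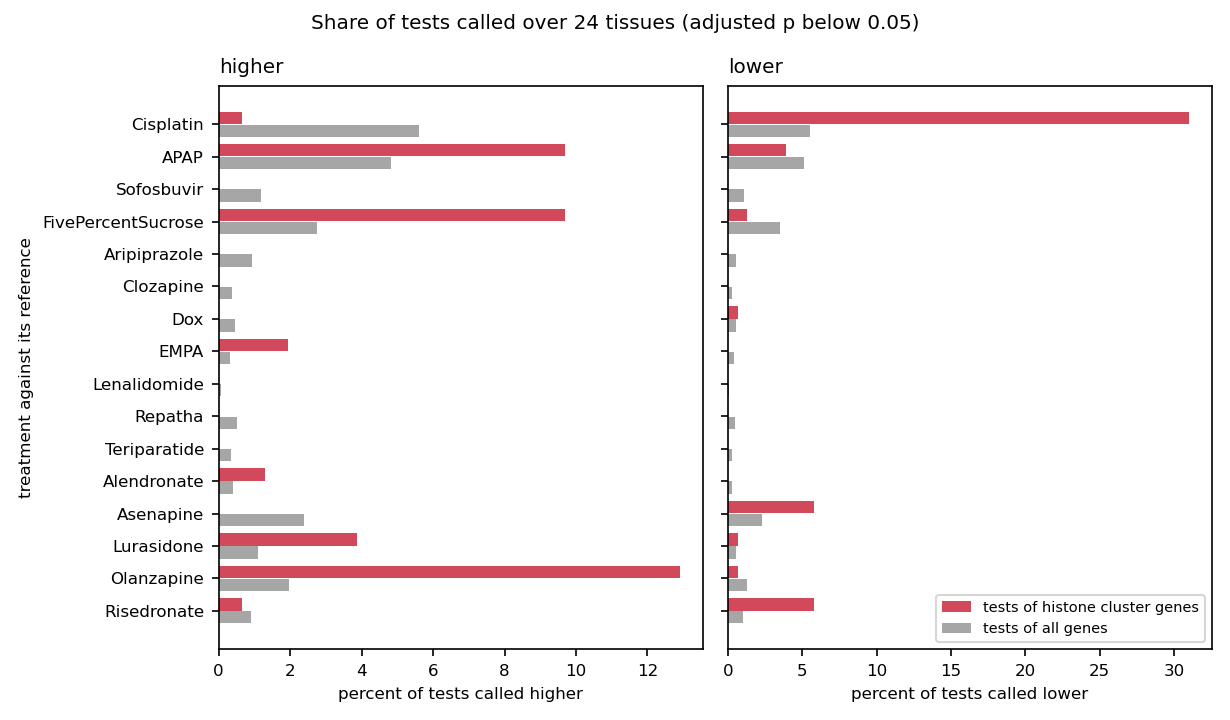
Percent of tests with an adjusted p below 0.05 over 24 tissues, higher and lower in separate panels, for each treatment against its reference. Red bars are the 155 tests of histone cluster genes and grey bars all genes. Cisplatin has the longest red bar among the lower calls (31.0% against 5.53% of all genes), and olanzapine among the higher calls (12.9% against 1.96%). Red bars weigh bone marrow, thymus and skull more than grey bars do.

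Cisplatin, a platinum compound that crosslinks DNA and is used against tumours, had the most. Over 24 tissues 48 of the 155 tests were lower, 31.0%, when 5.53% of all tests were, and 1 was higher, when 5.6% of all tests were. Thymus had 17 lower and 1 higher of 19 tested, bone marrow 15 lower of 29, skull 7 lower of 12, ileum 2 of 6 and colon 2 of 7, and jejunum, eye, kidney, parotid gland and stomach 1 each. Cdkn1a, a p53 target gene, was at 191 CPM in cisplatin thymus and 51.6 CPM in control thymus (log2 change 1.75 ± 0.23). In these bulk libraries fewer cells of a type and less RNA per cell cannot be told apart.

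In thymus, where 21.8% of all genes were lower and 22.1% higher, the linker histone genes fell far. Hist1h1e had 24.5 and 22.4 CPM in cisplatin thymus, against 279 and 308 CPM in control thymus (log2 change -3.78 ± 0.35, adjusted p = 7.16e-12). Hist1h1b had 2.23 and 0.861 CPM in cisplatin thymus, against 94.4 and 106 CPM, that is 3 against 198 counts, a ratio of 0.0147 (95% interval 0.00301 to 0.0437, for counting error only; adjusted p = 1.02e-11). Hist1h1d had 2 counts in cisplatin thymus against 65, a ratio of 0.0299 (0.00355 to 0.112; adjusted p = 3.21e-08). No cisplatin library reached the lowest control library in any of these genes. Hist1h1e was outside the rule for naming, as it is not among the 10 largest changes, and was chosen after its value was seen, as was Hist1h1c with 15.6 and 10.3 CPM in cisplatin thymus against 63.0 and 89.0 CPM (-2.67 ± 0.42, adjusted p = 1.77e-06).

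Several core histone genes were at or near 0 in the cisplatin thymus. Hist1h2ab had 0 and 0 CPM, against 16.1 and 24.9 CPM in control thymus, which is at least 13.4-fold lower with a floor of 3 counts over both cisplatin libraries (adjusted p = 2.16e-06). By the same floor Hist1h2an, an H2A gene, was at least 9.94-fold lower (adjusted p = 1.06e-06), Hist1h2bk at least 6.86-fold (adjusted p = 0.000176), Hist1h2ag, also H2A, at least 6.51-fold (adjusted p = 3.11e-05), Hist1h2af at least 4.801-fold (adjusted p = 0.000162) and Hist1h3c, an H3 gene, at least 4.46-fold (adjusted p = 0.000302). Hist1h2ae had 0 and 0.861 CPM in cisplatin thymus, against 39.6 and 43.2 CPM, 1 against 82 counts (ratio 0.0119, 0.000297 to 0.0679; adjusted p = 1.73e-08). Hist2h2ac had 1.11 and 0.861 CPM, against 33.1 and 45.8 CPM in control thymus, 2 against 76 counts (ratio 0.0256, 0.00304 to 0.0956; adjusted p = 6.39e-07). The other genes that were lower were Hist2h2bb, Hist1h1a, Hist1h4i, Hist1h4d and Hist1h4c; Hist1h4c did not pass without control replicate 4 (adjusted p = 0.147) or without cisplatin replicate 2 (adjusted p = 0.0528) or with DESeq2 (adjusted p = 0.0509).

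Hist1h2bc went the other way. It had 110 and 139 CPM in cisplatin thymus, against 40.4 and 48.4 CPM in control thymus, higher by 1.39 ± 0.21 on the log2 scale (adjusted p = 1.07e-06). Hist2h2be, also an H2B gene with no stem-loop match in its annotated transcript, had 26.7 and 30.1 CPM in cisplatin thymus, against 35.5 and 36.6 CPM (log2 change -0.46 ± 0.35, adjusted p = 0.299), and was the only gene of the 19 that did not pass. The median log2 change of the 19 genes was -5.02, against -0.0063 over all genes.

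Lists of other genes moved in the same libraries. All 20 genes of S phase and division fell in cisplatin thymus, with summed levels of 538 to 593 CPM against 4375 to 4376 CPM in control thymus; Mki67 fell by 4.29 ± 0.21 and Top2a by 4.12 ± 0.16 on the log2 scale. All 7 T cell and thymocyte genes fell, with sums of 562 to 641 CPM against 4596 to 4645 CPM, and Rag1, a recombinase of immature lymphocytes, was at 26.7 CPM against 1742 CPM. Of 6 neutrophil genes, 3 were tested and rose, with sums of 214 to 255 CPM against 37.1 to 41.9 CPM, and none of the 6 was at 0. Of 5 testis germ cell genes, 2 were tested and 1 rose, with sums of 6.03 to 77.9 CPM against 1.31 to 4.04 CPM. The part of these shifts in the histone counts was not tested.

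Genes that process or replace the cluster histones also moved in the thymus. Of 10 tested genes of histone mRNA 3′ end formation 6 fell, among them Slbp, which binds the stem-loop, at 22.4 CPM in cisplatin thymus and 68.1 CPM in control thymus (-1.73 ± 0.26, adjusted p = 7.97e-07), and Eri1, which trims the end after the loop, at 34.1 and 99.4 CPM (-1.66 ± 0.18). Npat, which turns on histone transcription in S phase, fell by 0.66 ± 0.20 on the log2 scale (adjusted p = 0.00659), and Lsm10 and Lsm11 of the U7 particle did not pass. Of 10 tested replacement histone genes 8 fell, among them H2afx, the H2A that is phosphorylated at DNA breaks, at 21.7 CPM in cisplatin thymus and 169 CPM in control thymus (-3.15 ± 0.22), and H2afz at 316 and 1054 CPM (-1.87 ± 0.13). H1f0, the replacement linker histone of cells that have stopped dividing, rose, with 105 CPM in cisplatin thymus and 32.2 CPM in control thymus (1.52 ± 0.25, adjusted p = 5.10e-06).

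**Figure D4:**
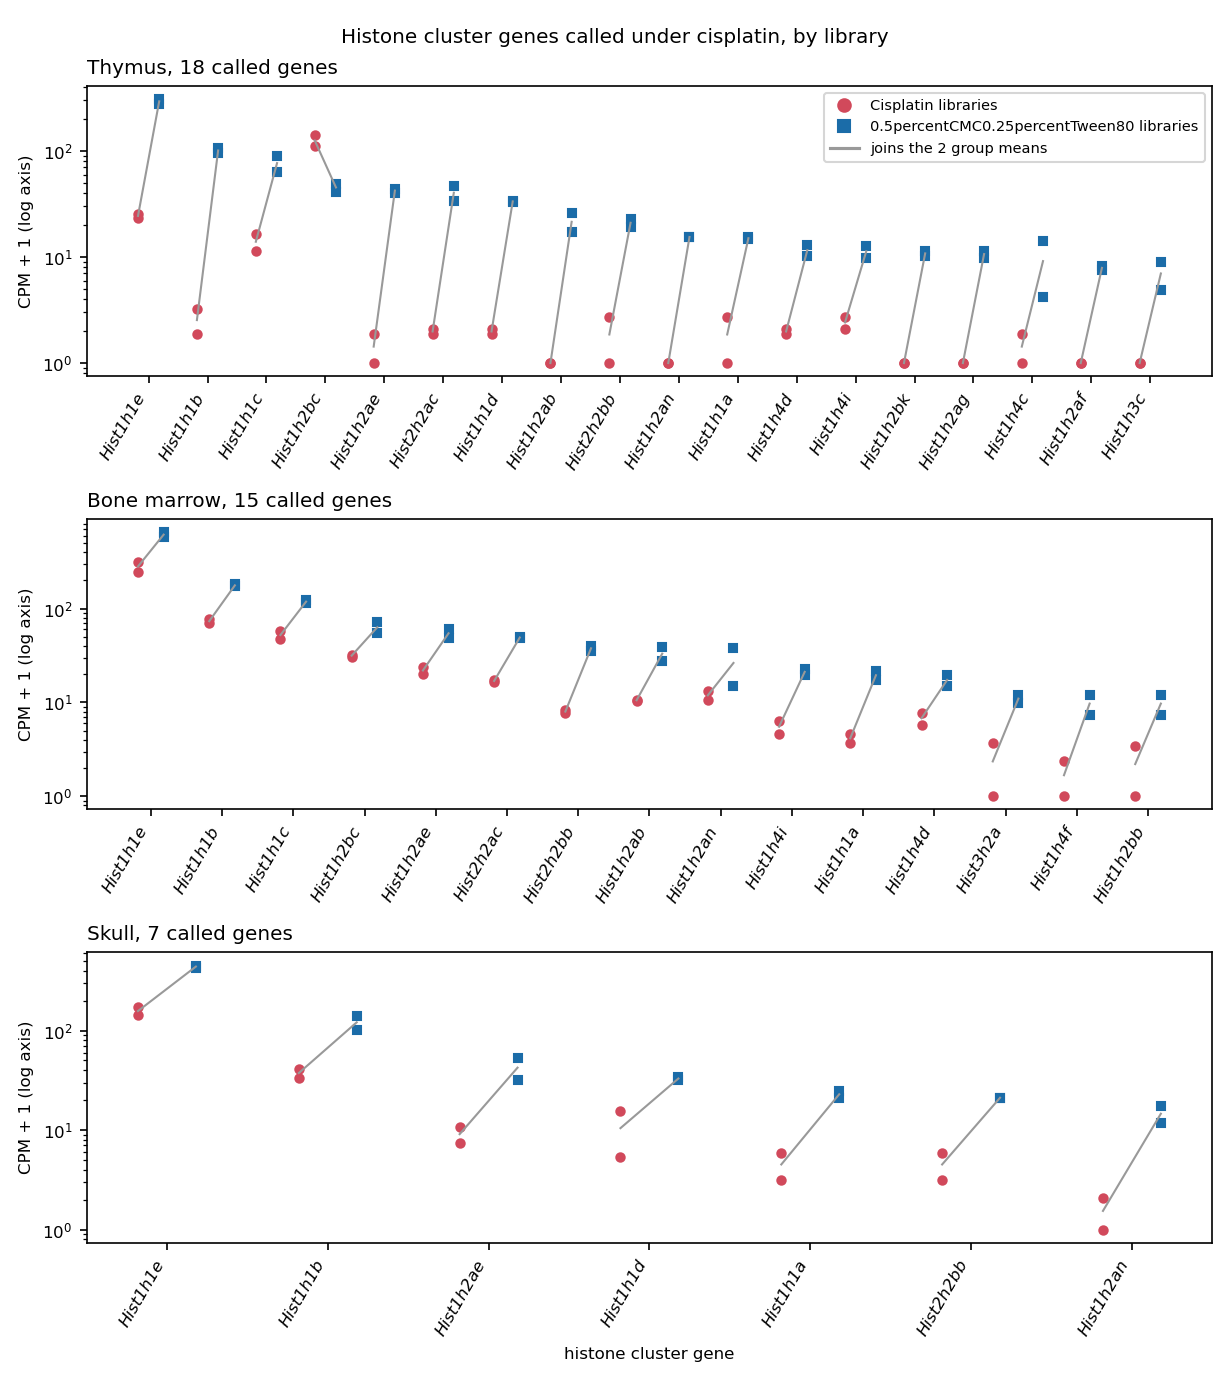
Level as CPM + 1 on a log axis of the histone cluster genes with an adjusted p below 0.05 under cisplatin, 18 in thymus, 15 in bone marrow and 7 in skull. Red circles are cisplatin libraries, blue squares control libraries, and a line joins the means. Every gene is lower under cisplatin except Hist1h2bc in thymus, and the thymus genes lie lowest.

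Histone cluster genes fell in bone marrow too. It had 15 genes lower and none higher of 29 tested, when 10.9% of all genes were lower and 7.72% higher, and the median log2 change of the 29 was -1.42, against 0.0015 over all genes. By the naming rule Hist2h2bb had 7.22 and 6.77 CPM in cisplatin marrow, against 34.2 and 39.3 CPM in control marrow (-2.43 ± 0.44, adjusted p = 2.26e-05). Hist2h2ac had 15.7 and 16.2 CPM in cisplatin marrow, against 49.4 and 47.0 CPM (-1.63 ± 0.30, adjusted p = 3.49e-05), and Hist1h1a had 3.61 and 2.71 CPM, against 16.5 and 20.5 CPM in control marrow (-2.56 ± 0.58, adjusted p = 0.000744). Hist1h2ab (-1.82 ± 0.39) and Hist1h2ae (-1.41 ± 0.31) also fell. In each of these 5 genes both cisplatin libraries lay below both control libraries.

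The other genes of the marrow rule had few counts or rested on 1 library. Hist1h4f had 1 count in cisplatin marrow against 18 (ratio 0.0694, 0.00166 to 0.439), Hist3h2a 2 against 20 (0.125, 0.0141 to 0.514) and Hist1h2bb 2 against 18 (0.139, 0.0156 to 0.579). Without control replicate 4 none of these passed (adjusted p = 0.171, 0.117 and 0.314), and neither did Hist1h4d (0.263), Hist1h2an (0.751) or Hist1h2bc (0.0974). Without cisplatin replicate 1 the genes that did not pass were Hist1h4i (adjusted p = 0.0513), Hist1h4f (0.172), Hist3h2a (0.234), Hist1h4d (0.221) and Hist1h2an (0.169), and without cisplatin replicate 3 they were Hist1h2an (0.0715), Hist1h4d (0.0913) and Hist1h2bb (0.292). With a replicate block Hist1h4f, Hist1h2an, Hist1h4d and Hist1h2bb did not pass (adjusted p = 0.0567, 0.0766, 0.139 and 0.117), and with DESeq2 Hist3h2a, Hist1h2an, Hist1h4d and Hist1h2bb did not (0.116, 0.18, 0.172 and 0.164).

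The linker histone genes with the highest marrow counts, chosen after their values were seen, fell by about as much as each other. Hist1h1e had 314 and 246 CPM in cisplatin marrow, against 578 and 647 CPM in control marrow (-1.18 ± 0.16, adjusted p = 3.76e-08), Hist1h1b had 75.8 and 69.0 CPM, against 180 and 172 CPM (-1.32 ± 0.20), and Hist1h1c had 56.6 and 46.0 CPM, against 122 and 114 CPM (-1.23 ± 0.22). Hist1h2bc fell in marrow, with 31.3 and 29.8 CPM under cisplatin against 54.4 and 70.1 CPM (-1.09 ± 0.28, adjusted p = 0.00265), where it had risen in thymus. In the same marrow libraries 12 of 20 division genes fell, with sums of 3399 to 3564 CPM against 5942 to 6056 CPM. All 5 red cell precursor genes fell, with sums of 6.77 to 7.22 CPM against 3152 to 3777 CPM, all 4 tested B cell genes fell, and 5 of 6 neutrophil genes rose, with sums of 58827 to 68282 CPM against 43740 to 49446 CPM. The part of these shifts in the histone counts was not tested.

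Skull had 7 of 12 genes lower, when 5.23% of all genes were lower and 3.75% higher, and all 12 log2 changes were below 0. Hist1h1e had 170 and 142 CPM in cisplatin skull, against 448 and 429 CPM in control skull (-1.49 ± 0.33, adjusted p = 0.00261), Hist1h1b had 40.5 and 32.3 CPM, against 140 and 99.5 CPM (-1.74 ± 0.39), and Hist1h2ae had 9.72 and 6.46 CPM, against 51.9 and 30.8 CPM (-2.39 ± 0.47, adjusted p = 0.000748). The groups did not overlap in these genes. Hist1h1a, Hist1h1d and Hist2h2bb fell by 1.86 to 2.68 on the log2 scale, and Hist1h2an had 1 count in cisplatin skull against 23 (ratio 0.0476, 0.00115 to 0.293; adjusted p = 0.0427). Hist1h2an did not pass with a replicate block (adjusted p = 0.0735), and against all other groups of the set Hist1h1a and Hist1h1d did not (0.0753 and 0.0538), nor Hist1h1d with DESeq2 (0.119). Of the division genes 13 of 20 fell (sums of 1856 to 1958 CPM against 3884 to 4209 CPM), all 5 red cell precursor genes fell (14.0 to 14.6 CPM against 1525 to 1702 CPM) and all 6 neutrophil genes rose; their part in the histone counts was not tested.

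In the gut Hist1h1e was lower in ileum, colon and jejunum. It had 20.0 and 25.6 CPM in cisplatin ileum, against 109 and 96.5 CPM in control ileum (-2.22 ± 0.27, adjusted p = 2.14e-07; 14.5% of all genes were lower), and 20.1 and 34.3 CPM in cisplatin colon, against 89.98 and 78.0 CPM (-1.67 ± 0.27, adjusted p = 2.48e-05; 4.91% of all genes). In jejunum it had 15.3 and 20.9 CPM under cisplatin, against 146 and 96.9 CPM (-2.73 ± 0.57, adjusted p = 0.00378; 2.9% of all genes), but without cisplatin replicate 1 it did not pass there (adjusted p = 0.0671). All 3 tissues had both cisplatin libraries below both control libraries. Hist1h1b had 3 counts in cisplatin ileum against 41 (ratio 0.117, 0.0231 to 0.366; adjusted p = 0.00102). Every histone cluster gene tested in these tissues had a log2 change below 0, though most were not called. The median was -1.59 over 6 genes in ileum, -0.857 over 7 in colon and -2.36 over 7 in jejunum. Over all genes the medians were -0.018, 3.2e-05 and -0.013. Division genes did not move alike in these tissues: 14 of 20 fell in ileum and 4 in jejunum, while in colon 3 rose and none fell, with sums of 1172 to 1181 CPM under cisplatin against 916 to 978 CPM. Their part in the histone counts was not tested.

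Hist1h2bc fell in 4 further tissues under cisplatin. It had 137 and 131 CPM in cisplatin colon, against 197 and 212 CPM in control colon (-0.67 ± 0.16, adjusted p = 0.00372), and 67.2 and 83.5 CPM in cisplatin stomach, against 115 and 119 CPM (-0.72 ± 0.17, adjusted p = 0.0121; 1.18% of all genes were lower). In kidney it had 158 and 222 CPM under cisplatin, against 287 and 235 CPM (-0.55 ± 0.18, adjusted p = 0.0206; 11.6% of all genes), and in the parotid gland 20.3 and 16.8 CPM, against 28.2 and 31.1 CPM (-1.03 ± 0.29, adjusted p = 0.0267; 2.91% of all genes). The groups were apart in all 4 tissues. The colon call was kept under all alternatives run for it, but the others were not. The stomach call was lost without cisplatin replicate 1 (adjusted p = 0.131), control replicate 3 (0.0847) or control replicate 4 (0.0822) and with a replicate block (0.0544), the kidney call without cisplatin replicate 1 (0.397), control replicate 3 (0.179) or TMM scaling (0.0573), and the parotid call without TMM scaling (0.151), without a filter (0.0605), with DESeq2 (0.0836) and with a replicate block (0.0942). In the cisplatin parotid gland the median of all genes moved by 0.33 on the log2 scale when TMM scaling was left out. Hist1h1e fell in eye, with 18.9 and 10.3 CPM under cisplatin against 39.8 and 54.2 CPM (-1.45 ± 0.42, adjusted p = 0.0446; 1.97% of all genes), but did not pass against all other groups of the set (adjusted p = 0.0591).

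Testis and spleen had no gene past the threshold under cisplatin. Hist1h2bp had 94.7 and 92.0 CPM in cisplatin testis, against 98.3 and 95.5 CPM in control testis (-0.01 ± 0.15, adjusted p = 0.992), and Hist1h4a had 38.5 and 43.4 CPM, against 18.9 and 40.3 CPM (0.51 ± 0.28, adjusted p = 0.462). Among the 5 germ cell genes 1 rose, with sums of 40321 to 40981 CPM against 29229 to 36093 CPM. In spleen Hist1h1e had 33.4 and 45.8 CPM under cisplatin, against 72.3 and 67.9 CPM (-0.82 ± 0.38, adjusted p = 0.242), while 8 of 20 division genes fell there.

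APAP, an analgesic that injures the liver at high dose, had 15 of 155 tests higher and 6 lower over 24 tissues (9.68% and 3.87%), when 4.83% and 5.12% of all tests were. Hist1h2bc rose in 6 tissues and Hist1h1e in 3. In bone marrow Hist1h2bc had 81.5 and 81.3 CPM under APAP, against 24.2 to 47.3 CPM in the 4 libraries of both control groups (1.37 ± 0.20, adjusted p = 8.52e-06; 2.76% of all genes were higher). In liver it had 184 and 177 CPM under APAP, against 103 to 143 CPM (0.60 ± 0.12, adjusted p = 0.000739; 7.7% of all genes), and in ileum 158 and 107 CPM, against 35.8 to 101 CPM (1.15 ± 0.22, adjusted p = 0.000355; 9.24% of all genes). In these 3 tissues the APAP libraries lay above all 4 control libraries, but in ileum the FivePercentSucrose libraries alone had 82.7 and 101 CPM, and against them the gene did not pass (adjusted p = 0.218).

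The further rises of Hist1h2bc under APAP were smaller. In jejunum it had 86.4 and 92.3 CPM under APAP, against 26.1 to 53.0 CPM (adjusted p = 0.0275; 12.6% of all genes), in stomach 81.1 and 95.8 CPM, against 48.6 to 67.6 CPM (adjusted p = 0.0179; 4.31%), and in kidney 159 and 247 CPM, against 129 to 162 CPM (adjusted p = 0.0429; 5.94%), where the groups overlapped. The jejunum call was lost against FivePercentSucrose alone (adjusted p = 0.193), without TMM scaling (0.0587) and in a fit of the set alone (0.19), the stomach call against WT(No treated) alone (0.144), without a filter (0.107) and with DESeq2 (0.053), and the kidney call against FivePercentSucrose alone (0.283) and with DESeq2 (0.0559).

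Linker histone genes rose under APAP in spleen, stomach and skeletal muscle. Hist1h1e had 131 and 52.4 CPM in APAP spleen, against 13.4 to 37.0 CPM (2.09 ± 0.30, adjusted p = 6.84e-06; 5.54% of all genes were higher), and Hist1h1c had 38.1 and 21.2 CPM, against 3.24 to 13.9 CPM (2.23 ± 0.39, adjusted p = 0.000111). The APAP libraries differed much from each other, and without APAP replicate 1 neither gene passed (adjusted p = 0.11 for Hist1h1e and 0.0782 for Hist1h1c). In stomach Hist1h1e had 58.5 and 34.6 CPM under APAP, against 12.1 to 19.4 CPM (1.64 ± 0.27, adjusted p = 0.000109). In skeletal muscle Hist1h1e had 9.05 and 16.2 CPM, against 1.81 to 4.46 CPM (1.95 ± 0.53, adjusted p = 0.00555; 12.6% of all genes), and Hist1h1c 4.53 and 9.09 CPM, against 0 to 1.77 CPM (2.81 ± 0.69, adjusted p = 0.00207). Hist1h1c in the thyroid gland (adjusted p = 0.0486; 1.45% of all genes) and, in skull, Hist1h1b, Hist2h2ac and Hist1h1d (adjusted p = 0.00561, 0.0165 and 0.0407; 3.56% of all genes) also rose against both controls, but none of these 4 passed against FivePercentSucrose alone (adjusted p = 0.199 for Hist1h1c, 0.257 for Hist1h1b, 0.167 for Hist2h2ac and 0.278 for Hist1h1d). In a fit of the set alone the 3 skull genes did not pass either (0.0856, 0.108 and 0.13), and Hist1h1c in the thyroid gland did not pass without TMM scaling (0.0508) or with a replicate block (0.0739).

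Thymus and ileum had falls under APAP. In thymus, where 15.4% of all genes were lower, Hist1h2af had 0 and 0 CPM under APAP, against 4.33 to 7.97 CPM, which is at least 3.20-fold lower (adjusted p = 0.000535), and Hist1h3c, with 0 against 48 counts, was at least 2.19-fold lower (adjusted p = 0.00217). Hist1h1b had 1.44 and 5.92 CPM in APAP thymus, against 9.23 to 26.0 CPM (-2.19 ± 0.69, adjusted p = 0.0147), and Hist1h2bk had 1 count against 65 (ratio 0.112, 0.0028 to 0.647; adjusted p = 0.0257). Without APAP replicate 1 Hist1h1b and Hist1h2bk did not pass (adjusted p = 0.226 and 0.0572), and without APAP replicate 2 or FivePercentSucrose replicate 1 Hist1h2bk did not (0.257 and 0.0692). Hist1h1b also missed the threshold against WT(No treated) alone (0.0916), and Hist1h2bk against FivePercentSucrose alone (0.103) and with DESeq2 (0.137). All 20 division genes fell in APAP thymus, with sums of 922 to 1030 CPM against 3956 to 4894 CPM, but 1 of 7 T cell genes did, with sums of 3768 to 4019 CPM against 3123 to 4208 CPM. In ileum Hist1h1e had 14.4 and 27.7 CPM under APAP, against 33.6 to 55.6 CPM (-0.96 ± 0.26, adjusted p = 0.0088; 6.75% of all genes were lower), but it did not pass against FivePercentSucrose alone (0.164); 9 of 20 division genes fell there. In bone marrow Hist1h2bk was lower (adjusted p = 0.0309; 2.74% of all genes) but lost that call without any 1 of 4 libraries, at adjusted p up to 0.353.

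FivePercentSucrose and WT(No treated) are both control groups, so their difference shows how far histone counts moved without a drug. Over 24 tissues 15 tests were higher and 2 lower in sucrose libraries (9.68% and 1.29%), when 2.76% and 3.53% of all tests were. In thymus Hist1h1e had 96.4 and 116 CPM in sucrose libraries, against 35.8 and 31.5 CPM in untreated ones (1.54 ± 0.30, adjusted p = 0.000185; 7.93% of all genes were higher), and Hist1h2ab had 10.4 and 10.8 CPM, against 1.18 and 0.225 CPM (3.73 ± 0.69, adjusted p = 0.00012). Hist1h2an, Hist1h1c and Hist1h1b were higher too, and Hist2h2be was lower, with 35.0 and 36.8 CPM in sucrose thymus against 81.6 and 63.3 CPM in untreated thymus (-1.11 ± 0.27, adjusted p = 0.00262; 9.86% of all genes were lower). No group overlapped another in these 6 genes. In the same thymus libraries 7 of 20 division genes were lower, opposite to the linker histone genes.

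Other tissues gave the same kind of difference between the control groups. In bone marrow Hist2h2ac had 24.2 and 24.7 CPM in sucrose libraries, against 9.27 and 8.13 CPM in untreated ones (1.40 ± 0.29, adjusted p = 0.000984; 2.36% of all genes were higher), and Hist1h1c and Hist1h2ab were higher. Hist1h1e was higher in the adrenal gland, kidney and parotid gland (adjusted p = 0.0256, 0.0374 and 0.0217; 6.88%, 5.56% and 6.45% of all genes), and Hist1h2bc in the adrenal gland, ileum and thyroid gland (adjusted p = 0.0335, 0.00971 and 0.0187; 2.67% of all genes in ileum and 2.13% in the thyroid gland). Hist1h2bp was higher in testis, with 65.6 and 78.1 CPM in sucrose libraries against 37.6 and 52.5 CPM (0.64 ± 0.17, adjusted p = 0.0102; 3.31% of all genes), and Hist2h2be was lower in kidney (adjusted p = 0.0424; 8.93% of all genes). With a replicate block Hist1h1b in thymus (adjusted p = 0.0857), Hist1h1e in kidney (0.0771) and the parotid gland (0.103), Hist1h2ab in bone marrow (0.102) and Hist2h2be in kidney (0.156) did not pass. Without a filter Hist1h2bc in the adrenal gland (0.152), Hist1h2ab in bone marrow (0.0631) and Hist1h2bp in testis (0.0511) did not. DESeq2 lost Hist1h2bc in the adrenal gland (0.114), Hist1h1e in kidney (0.0515) and Hist1h1b in thymus (0.0518). A fit of the set alone lost Hist1h1e in kidney (0.0524) and Hist1h2ab in bone marrow (0.0527). Leaving out TMM scaling lost Hist2h2be in kidney (0.0804). The untreated libraries were sequenced more deeply than the sucrose ones, and depth and group cannot be told apart. In the parotid gland leaving out TMM scaling moved the median of all genes by 0.39 on the log2 scale, in kidney by 0.12 and in thymus by 0.11.

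Among the 5 drugs without a control, olanzapine, an antipsychotic, had the most higher calls. Against the other 4 drugs 20 of 155 tests were higher and 1 lower (12.9% and 0.645%), when 1.96% and 1.3% of all tests were. In thymus, where 2.99% of all genes were higher, 8 of 19 genes were higher. Hist2h2ac had 63.5 and 122 CPM in olanzapine thymus, against 10.6 to 33.3 CPM (median 13.3) in the other 8 libraries (2.49 ± 0.34, adjusted p = 4.12e-05). Hist1h1e had 332 and 330 CPM, against 103 to 227 CPM (1.003 ± 0.22, adjusted p = 0.00366), and Hist1h1b had 114 and 98.3 CPM, against 19.2 to 87.2 CPM (1.40 ± 0.27, adjusted p = 0.00136). The olanzapine libraries were above all others in these genes and in Hist1h2an, Hist1h1d and Hist1h2ae, and overlapped them in Hist1h2ab and Hist1h1c.

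In skull 7 of 12 genes were higher under olanzapine, when 1.65% of all genes were. Hist2h2ac had 77.4 and 64.5 CPM in olanzapine skull, against 6.52 to 17.4 CPM (2.58 ± 0.36, adjusted p = 0.00013), Hist1h2ae had 57.6 and 40.7 CPM, against 5.32 to 17.2 CPM (2.05 ± 0.33, adjusted p = 0.00102), and Hist1h1e had 432 and 392 CPM, against 114 to 305 CPM (1.02 ± 0.25, adjusted p = 0.0217). No library of the other drugs reached the olanzapine ones in the 7 genes, which also held Hist1h1b, Hist1h1d, Hist1h2ab and Hist1h2an. The division genes did not move with them: 2 of 20 were higher and 1 lower in thymus and likewise in skull, with median log2 differences of 0.04 and -0.18. Hist1h1e was also higher in stomach, brain and kidney (adjusted p = 0.00348, 0.0199 and 0.0194; 7.69%, 5.54% and 4.15% of all genes), and Hist1h1c in stomach (adjusted p = 0.0277). Hist1h2bc was higher in liver, with 354 and 322 CPM under olanzapine against 174 to 307 CPM (adjusted p = 0.0193; 1.72% of all genes), and lower in colon, with 156 and 184 CPM against 211 to 313 CPM (adjusted p = 0.00445; 0.409% of all genes). The liver call was lost in a fit of the set alone (adjusted p = 0.0893) and without a filter (0.0589).

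Risedronate, a bisphosphonate that slows bone resorption, had its lower calls in bone marrow, ileum and colon, with 9 tests lower and 1 higher over 24 tissues, when 1.0% and 0.915% of all tests were. In bone marrow 5 of 29 genes were lower than under the other 4 drugs, when 7.21% of all genes were. Hist1h1e had 107 and 120 CPM in risedronate marrow, against 222 to 438 CPM (median 348) in the other 8 libraries (-1.58 ± 0.16, adjusted p = 5.19e-10), Hist1h1c had 20.7 and 28.7 CPM, against 49.8 to 77.8 CPM (-1.49 ± 0.24, adjusted p = 1.49e-05), and Hist1h1b had 18.2 and 18.7 CPM, against 36.5 to 75.7 CPM (-1.45 ± 0.28, adjusted p = 0.000178). Hist1h1a and Hist1h2bc were lower as well, with overlap, and Hist1h2bc did not pass with DESeq2 (adjusted p = 0.0693). In ileum Hist1h1e had 11.99 and 9.41 CPM, against 60.9 to 105 CPM (-2.95 ± 0.26, adjusted p = 1.08e-08; 5.73% of all genes were lower), Hist1h1b had 0 against 49 counts, at least 5.86-fold lower (adjusted p = 0.00146), and Hist1h1c was lower (-2.18 ± 0.54, adjusted p = 0.00851). In colon Hist1h1e had 10.7 and 12.5 CPM, against 29.8 to 68.6 CPM (-2.24 ± 0.28, adjusted p = 3.09e-07; 7.23% of all genes). In jejunum, by contrast, the median log2 difference of the 7 genes tested was 0.62, with no call. The risedronate libraries were below all others for Hist1h1e in marrow, ileum and colon, while 3 of 20 division genes were lower in marrow, 2 in ileum and 1 in colon, where 2 were higher. In stomach Hist1h2bc was higher, with 207 and 194 CPM under risedronate against 85.7 to 186 CPM (0.61 ± 0.12, adjusted p = 0.0092; 0.343% of all genes), and did not pass in a fit of the set alone (adjusted p = 0.112).

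**Figure D5:**
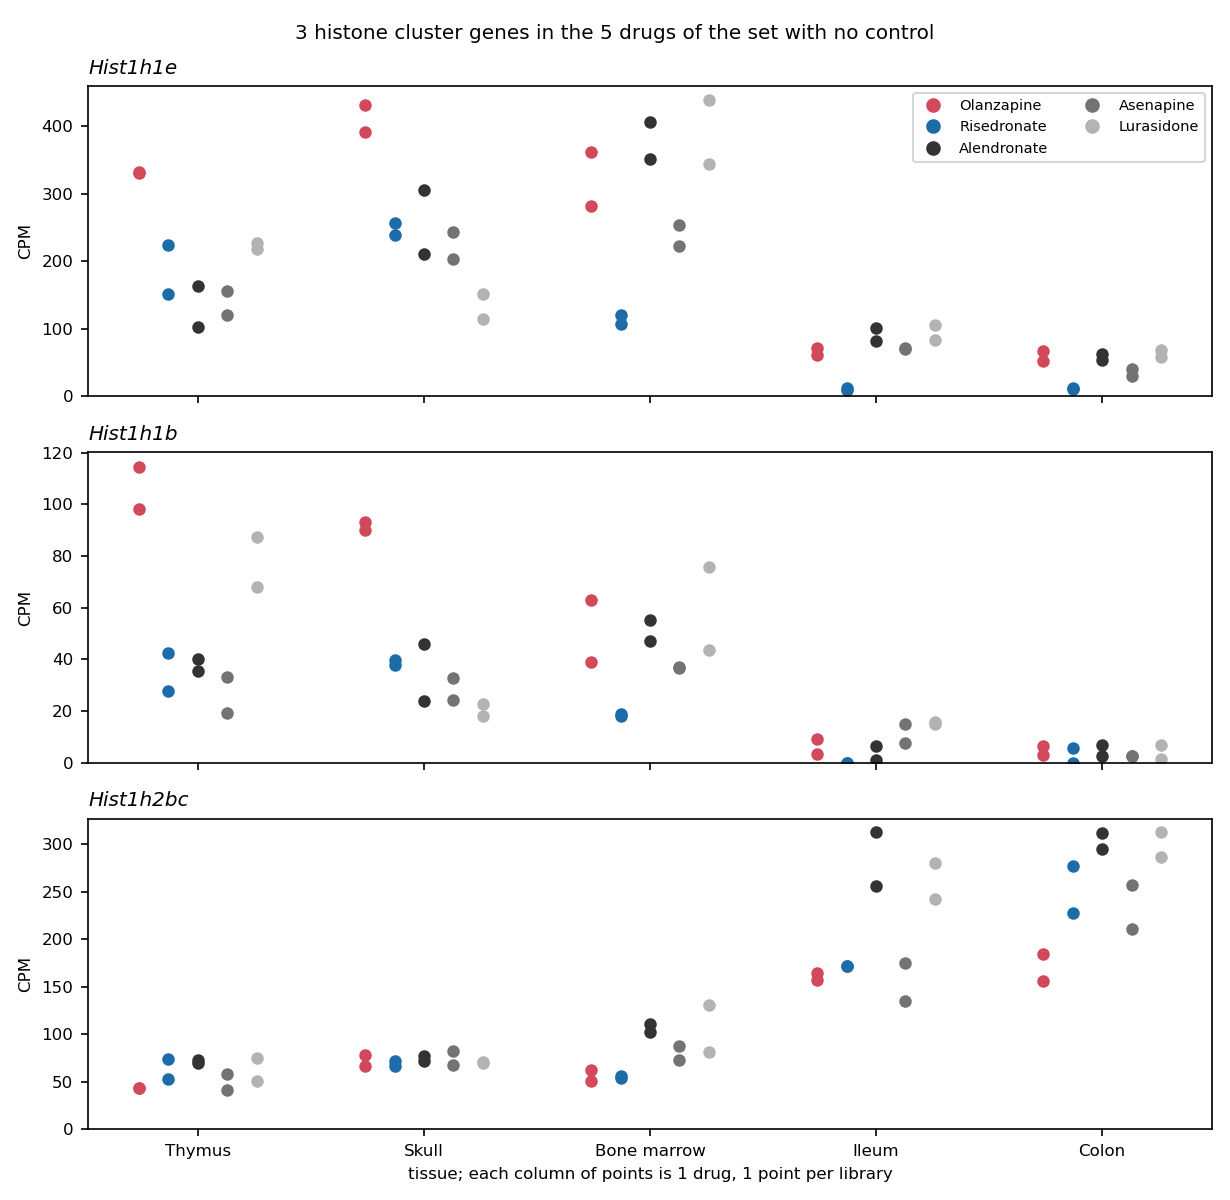
Level in CPM of Hist1h1e, Hist1h1b and Hist1h2bc in thymus, skull, bone marrow, ileum and colon under the 5 drugs without a control group, with 1 point per library and 1 column of points per drug. Olanzapine has the highest Hist1h1e points in thymus (332 and 330 CPM) and skull, and risedronate the lowest in bone marrow (107 and 120 CPM), ileum and colon.

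Asenapine, lurasidone and alendronate differed from the other drugs mostly in Hist1h2bc or Hist1h1e. Under asenapine, an antipsychotic, 9 of 155 tests were lower (5.81%, when 2.29% of all tests were) and none higher (2.38% of all tests), and 7 of the 9 were Hist1h2bc. Hist1h2bc had 174 and 193 CPM in asenapine liver, against 213 to 354 CPM (-0.63 ± 0.12, adjusted p = 0.00139; 1.83% of all genes), 82.7 and 95.0 CPM in lung, against 104 to 153 CPM (adjusted p = 0.0155; 2.6%), and 306 and 297 CPM in kidney, against 357 to 461 CPM (adjusted p = 0.0344; 1.48%). It was also lower in spleen, eye, adrenal gland and brain (adjusted p = 0.0205, 0.0212, 0.039 and 0.0475; 2.65%, 3.07%, 1.74% and 8.47% of all genes), with overlap except in the adrenal gland. With a replicate block it did not pass in kidney (adjusted p = 0.102), lung (0.0541), spleen (0.0691), eye (0.283) and adrenal gland (0.227), and in brain it did not pass with DESeq2 (0.166), without TMM scaling (0.145), without a filter (0.151) or in a fit of the set alone (0.0723). In asenapine thymus Hist1h1b and Hist1h2ae were lower (adjusted p = 0.0151 and 0.0265; 5.33% of all genes) and did not pass with a replicate block (0.106 and 0.145). At least in thymus, eye and adrenal gland the asenapine libraries shared no replicate number with the other drugs of the set. Number and drug cannot be told apart there, so a loss with the block does not show that a call is weaker.

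Lurasidone, also an antipsychotic, had 6 tests higher and 1 lower, when 1.1% and 0.531% of all tests were. Hist1h1e was higher under lurasidone in bone marrow (345 and 438 CPM, against 107 to 406 CPM; adjusted p = 0.000615; 1.81% of all genes), ileum (82.8 and 105 CPM, against 9.41 to 102 CPM; adjusted p = 0.002; 2.22%) and colon (68.6 and 58.6 CPM, against 10.7 to 66.5 CPM; adjusted p = 0.00768; 4.25%). The groups overlapped in all of these, the low end of the comparison being risedronate. Hist1h1b in ileum, Hist1h1c in eye (0.855% of all genes) and Hist1h2bc in colon were higher and Hist1h2bc in stomach was lower (0.0685% of all genes), at adjusted p of 0.00759 to 0.0439. Hist1h2bc in stomach did not pass in a fit of the set alone (adjusted p = 0.271) or with a replicate block (0.0937), and without TMM scaling Hist1h2bc in colon (0.0731) and Hist1h1c in eye (0.0547) did not. Alendronate, a bisphosphonate like risedronate, had 2 tests higher and none lower, when 0.406% and 0.298% of all tests were: Hist1h1e was higher in bone marrow, with 406 and 351 CPM against 107 to 438 CPM (adjusted p = 0.000923; 2.73% of all genes), and in ileum, with 82.4 and 102 CPM against 9.41 to 105 CPM (adjusted p = 0.00484; 0.973%). The low end was risedronate here too: the other 6 libraries had 222 to 438 CPM in marrow and 60.9 to 105 CPM in ileum, and alendronate overlapped them in both tissues.

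The 7 other drugs with 0.5percentCMC0.25percentTween80 as their reference had 4 tests past the threshold, 3 higher under EMPA (0.326% of all tests were higher and 0.388% lower) and 1 lower under Dox (0.466% higher and 0.528% lower). EMPA had 3 H2A genes higher in bone marrow, when 0.74% of all genes were: Hist2h2ac had 91.0 and 93.9 CPM under EMPA, against 49.4 and 47.0 CPM in control marrow (0.99 ± 0.21, adjusted p = 0.00702), Hist1h2ab had 66.0 and 61.8 CPM, against 26.6 and 37.6 CPM (adjusted p = 0.037), and Hist1h2ae had 81.1 and 109 CPM, against 48.1 and 59.0 CPM (adjusted p = 0.0425). The groups were apart in all 3, but with a replicate block none passed (adjusted p = 0.18, 0.305 and 0.115), and without TMM scaling Hist1h2ab and Hist1h2ae did not (0.0502 and 0.0583). The EMPA and control libraries of marrow shared no replicate number, so number and group cannot be told apart in this comparison. The loss with the block thus does not show that these calls are weaker. In these libraries 3 of 20 division genes and 2 of 5 red cell precursor genes were higher, with sums of the red cell genes at 5087 to 5365 CPM against 3152 to 3777 CPM, and their part was not tested. Under Dox Hist1h2bc was lower in skin, with 44.7 and 53.8 CPM against 109 and 74.3 CPM (-0.91 ± 0.27, adjusted p = 0.0299; 6.79% of all genes), and did not pass against all other groups of the set (adjusted p = 0.105), with DESeq2 (0.0504) or in a fit of the set alone (0.0672).

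Sofosbuvir, aripiprazole, clozapine, lenalidomide, Repatha and teriparatide had no histone cluster gene past the threshold with edgeR. At an unadjusted p below 0.05 they had 25, 10, 25, 8, 10 and 20 of the 155 tests, and with DESeq2 sofosbuvir had 1 and the other 5 none. The share of all genes at the unadjusted threshold or with DESeq2 is not given here. Whether these counts are more or fewer than among all genes thus cannot be read from them. At the adjusted threshold with edgeR, 1.19% of all tests were higher and 1.08% lower under sofosbuvir, 0.92% and 0.535% under aripiprazole, 0.373% and 0.303% under clozapine, 0.0523% and 0.0656% under lenalidomide, 0.509% and 0.476% under Repatha, and 0.349% and 0.302% under teriparatide. A median library held 176.5 counts over all 68 genes, and whether depth bears on the missing calls was not tested.

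Levels also differed between the library sets, with cisplatin left out. Hist1h1e in bone marrow had a median of 183 CPM in the 8 libraries of APAP, sofosbuvir and their controls, 313 CPM in the 10 of the set without a control, and 518 CPM in the 16 of the set with 0.5percentCMC0.25percentTween80. Hist2h2ac in thymus had medians of 3.65, 16.4 and 41.4 CPM in the same order, and Hist1h1b in bone marrow 49.4, 41.3 and 151 CPM. In kidney Hist1h2bc had 161, 417 and 251 CPM and Hist2h2be 16.1, 10.7 and 7.43 CPM, so these H2B genes had their highest medians in different sets. Set and treatment cannot be told apart in these medians, and a level of a polyadenylated histone transcript in 1 set cannot be read against a level in another.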

How the data were processed

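The authors deposited read counts per gene for each tissue, 1 column per library. Per the labels' protocols, frozen tissue was extracted with Trizol and sequenced as QuantSeq 3′ mRNA libraries, and the submitters' processing notes name bcl2fastq 2.17, TopHat2 2.1.1, HTSeq 0.9.1 and mm10; the strand setting and the annotation are not given in the sources used here. CPM was computed from the column sums. Counts were tested with the quasi-likelihood F test of edgeR 4.0.16 in R 4.3.3 (filterByExpr with a minimum count of 10, TMM scaling, Benjamini-Hochberg adjustment over all genes tested, threshold 0.05). Each tissue had 1 fit of all 18 groups; untreated libraries had 1 fit of 24 tissues, each against the mean of the other 23. SE is the log2 change divided by the square root of F. DESeq2 1.42.0, no TMM, no filter, other references, a replicate block, a fit of the set alone and leaving out libraries were alternatives; a lone remaining library was assumed to vary like the other groups. Library sets come from the counts, not from the labels. Nothing in the labels says that replicates are separate animals, so p-values measure the spread between libraries, which may be technical. The procedure was tested on simulated data. The genes and lists were chosen with earlier results of these data known. Histone genes with a mean of at least 5 CPM in an untreated tissue were named. The rule also covered genes higher there by the test, but those below 5 CPM were counted and mostly not named. Under a drug those past the threshold (the 10 largest changes where there were more) and up to 4 that did not pass were named. Ratios and floors (3 counts over a group, 95% intervals) cover counting error only.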

Additional observations from a re-analysis of the deposited data

Results flagged for a closer look

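In 12 cases a histone cluster gene passed the threshold in opposite directions in a pair of tissues under the same treatment. These pairs were picked after the calls were seen, and for each the difference between the tissues was then tested in a joint edgeR fit of both, with p-values adjusted over all genes of that fit; all 12 differences had an adjusted p below 0.05, which the way they were picked favours. No explanation was tested.

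Under cisplatin, Hist1h2bc was higher in thymus and lower in 5 tissues. The log2 change in thymus minus that in the other tissue was 2.56 (SE 0.35, adjusted p = 1.819e-08) for bone marrow, 1.97 (adjusted p = 3.613e-08) for colon, 1.92 (adjusted p = 3.053e-07) for kidney, 2.29 (adjusted p = 4.749e-06) for the parotid gland and 2.12 (adjusted p = 1.135e-08) for stomach. These 5 differences share the thymus libraries.

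Under APAP, Hist1h1e was lower in ileum and higher in skeletal muscle, spleen and stomach. Its log2 change was larger than that in ileum by 2.90 in skeletal muscle (adjusted p = 0.0002876), 2.95 in spleen (adjusted p = 1.285e-05) and 2.56 in stomach (adjusted p = 5.554e-06). Hist1h1b was higher in APAP skull and lower in APAP thymus, a difference of 3.75 (adjusted p = 0.001151).

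For Hist1h2bc under drugs without a control group, the log2 difference was larger in colon than in stomach by 0.98 under lurasidone (adjusted p = 0.0004519), larger in liver than in colon by 1.15 under olanzapine (adjusted p = 9.633e-05), and larger in stomach than in bone marrow by 1.22 under risedronate (adjusted p = 0.0003515). The other drugs serve as the reference here, so a difference may lie in any of them.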

How the results depend on the processing

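No direction of a reported result turned under any alternative run. Of the 140 single calls, 12 were lost without TMM scaling, 7 without the filter, 25 with a replicate block, 11 in a fit of the set alone (120 kept; the others had no value) and 17 of 102 with DESeq2; of the 21 APAP calls, 10 were lost against FivePercentSucrose alone and 2 against WT(No treated) alone. As a check of pairing, the log2 difference between the libraries of a group was correlated over genes with that of another group. Both groups were of the same tissue and set and had the same replicate numbers. Over 414 such pairs of groups r had a median of 0.021 and a range of -0.437 to 0.636. It was over 0.1 in 76 pairs and under -0.1 in 28, so the numbers were not taken to pair the libraries as a whole. Pairing within single tissues was not tested, and a call lost with the block is not shown to be weaker. With the replicate block asenapine had 3 lower calls, FivePercentSucrose 1 lower, clozapine 1 lower and EMPA 0 higher. With DESeq2, the untreated tissues had 20 genes higher in thymus, 13 in colon, 13 in ileum, 12 in skull, 8 in jejunum, 2 in spleen and 5 in testis; APAP had 9 higher, FivePercentSucrose 9 higher and 1 lower, olanzapine 8 higher, risedronate 5 lower and 0 higher, asenapine 5 lower, sofosbuvir 1 lower, EMPA 0 higher and Dox 0 lower, and cisplatin 3 lower in skull. Without the filter cisplatin had 27 lower in thymus, APAP 10 lower, FivePercentSucrose 6 lower, risedronate 3 higher, lurasidone 5 lower, alendronate 6 higher, clozapine 2 lower, Repatha 1 lower, teriparatide 5 lower, and sofosbuvir 5 higher and 1 lower. Without TMM FivePercentSucrose had 1 lower, Dox 2, clozapine 1, Repatha 2, teriparatide 4, and sofosbuvir 1 higher. Against all other groups of the set cisplatin had 5 higher, EMPA 16, aripiprazole 6, clozapine 2, lenalidomide 4 and Repatha 7, and Dox 0 lower. Against WT(No treated) alone APAP had 26 higher and 13 lower and sofosbuvir 12 higher and 1 lower; against FivePercentSucrose alone APAP had 8 higher and sofosbuvir 2 lower. In a fit of the set alone olanzapine had 2 lower, Dox 0, clozapine 1, teriparatide 1, and sofosbuvir 4 higher and 1 lower. Where a library was left out, cisplatin had 17 to 18 lower in thymus and 10 to 16 in bone marrow, APAP 0 to 3 higher in spleen, and the untreated tissues 35 to 38 genes higher in bone marrow, 31 in thymus, 7 in testis and 4 to 6 in spleen; leaving out brain libraries was not run. Leaving out a library covered 49 of the 140 calls, under cisplatin and APAP only, and 16 of the 49 were lost in at least 1 such fit; it was not run for cisplatin in skull, eye or the parotid gland, for APAP outside thymus, liver, bone marrow and spleen, or for any call of another treatment. The cause of these shifts was not tested. The counts of calls under the alternatives are given without the share of all genes called in the same setting. They show how far the calls depend on the processing and are not results about histone genes. Without TMM the median of all genes moved by over 0.1 (log2) in 9 of the 57 drug and tissue pairs with a call, and the share of higher among called genes was 67.1% in APAP thymus (39.4% with TMM) and 63.2% in FivePercentSucrose thymus (44.6% with TMM).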
